A study of Mus musculus with 6 samples.

Results

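The genes described here are 10 transcripts of hepatocytes around the central vein, several of them under Wnt and beta-catenin: Glul, Oat, Cyp2e1, Cyp1a2, Gulo, Rgn, Axin2, Lgr5, Tbx3 and Slc1a2. They were given as a list of names, drawn up with earlier results of these data known, and all 10 were found among the 58601 rows of the deposited table. Liver RNA of mice labelled Mdr2 knockout was sequenced in 6 libraries, 3 from mice given lycorine, a plant alkaloid, and 3 from mice given vehicle. Mice of both groups were 8 weeks old at the start, were treated for 2 weeks and carried the same knockout, which the protocol text also writes as Mdr2-HKO without spelling out the abbreviation. The sources used here give no sex, strain, dose or route, and no wild-type liver was analysed here. The labels do not say that each library came from a separate mouse, so p-values reflect only how far the 6 libraries vary, and some of that may be technical. The series title places the study in intrahepatic cholestasis, and the comparison asks how the pericentral genes stood with the drug.

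Hepatocytes divide labour along the axis from the portal vein to the central vein. Endothelial cells of the central vein secrete Wnt proteins and R-spondins, which stabilise beta-catenin in nearby hepatocytes and turn on pericentral genes such as glutamine synthetase. Periportal hepatocytes carry the urea cycle, gluconeogenesis and glutaminase. Pericentral hepatocytes carry glutamine synthesis and much of the cytochrome P450 system, which makes this zone a frequent site of drug injury.

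Levels are in TPM, a unit per transcript length whose values sum to the same total in each library, so levels of different genes may be compared. Depth cannot be read from such values, and no counting interval is given. Abcb4, the gene that encodes Mdr2, was present at 8.96, 8.32 and 32.2 TPM with lycorine and at 43.5, 10.8 and 12.3 TPM with vehicle, and a gene-level value does not show which part of a transcript remains. Protein-coding nuclear genes held 69.5% to 78.1% of TPM with lycorine and 51.5% to 71.5% with vehicle, and vehicle 3 was the lowest. Alb, the plasma albumin of hepatocytes, was at 19785, 19465 and 11824 TPM with lycorine and at 16618, 18246 and 5039 TPM with vehicle. Vehicle 3 was thus the lowest for this hepatocyte transcript. Values without it are given for most members, for many lists and for some other genes. A fold change given without such a value may still depend on vehicle 3. In whole liver, fewer cells of a type and less RNA per cell cannot be told apart.

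The 9 of these 10 genes that could be tested lay higher with lycorine on average, and in 0 of them did the difference pass the test over all genes. Genes with a mean of at least 1 TPM were tested on log2(TPM + 1), a scale that understates changes of weak genes. Of the 10 genes, 9 passed this filter and Lgr5 did not. With limma and Benjamini-Hochberg adjustment over 13854 rows, 0 of the 9 were called at 0.05, against 0.0% of all tested rows, and their adjusted p values were 0.832 to 0.859. At an unadjusted limma p under 0.05 there were 2 of the 9, Gulo and Cyp2e1, against 3.44% of all tested rows. All 9 had a log2 fold change above 0, as did 69.9% of tested rows. Their median log2 fold change was 0.64, and that of all tested rows was 0.22. For 4 of the 9, Glul, Slc1a2, Cyp2e1 and Gulo, all 3 lycorine values exceeded all 3 vehicle values, which held for 9.6% of tested rows. The opposite held for 0 of the 9 and for 1.01% of tested rows. With the filter raised to a mean of 5 TPM, the share with lycorine on top was 4 of 7 members and 13.8% of rows.

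Of the 3 members that handle glutamine and glutamate, Glul and Slc1a2 separated the groups and Oat did not. Glul (ENSMUSG00000026473), glutamine synthetase, fixes ammonia that periportal cells leave behind and is expressed in a thin rim of hepatocytes next to the central vein. It lies on chromosome 1 from 153899944 to 153909723 (GRCm38, + strand). Glul was at 117.5, 123 and 152 TPM with lycorine and at 79.3, 96.0 and 81.3 TPM with vehicle. The groups did not overlap, and lycorine 3 was the highest of all. Its mean was 130.9 ± 18.6 TPM with lycorine and 85.6 ± 9.11 TPM with vehicle (SD, n = 3 each). On the log2 scale the difference was 0.60 (SE 0.27, limma adjusted p = 0.832, exact permutation p = 0.1). With 3 libraries against 3 the exact two-sided p cannot go below 0.1. Vehicle 3, the lowest for albumin, lay between vehicle 1 and vehicle 2 for Glul, and without it the log2 fold change was 0.57.

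Slc1a2 (ENSMUSG00000005089), the glutamate importer GLT-1, which is known in the liver from the same rim of cells, lies on chromosome 2 from 102658659 to 102790784 (+ strand). It was at 14.4, 17.3 and 20.6 TPM with lycorine and at 9.98, 12.5 and 11.7 TPM with vehicle. Again the groups did not overlap and lycorine 3 was the highest. The log2 difference was 0.57 (SE 0.28, limma adjusted p = 0.832, exact permutation p = 0.1), and 0.59 without vehicle 3.

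Oat (ENSMUSG00000030934), ornithine aminotransferase, feeds ornithine carbon into glutamate in mitochondria. It lies on chromosome 7 from 132557478 to 132576398 (- strand). It was at 258, 131 and 176 TPM with lycorine and at 143, 155 and 70.0 TPM with vehicle. The groups overlapped, with lycorine 1 the highest, vehicle 3 the lowest and lycorine 2 below 2 of the vehicle libraries. The log2 difference of 0.64 (SE 0.42, limma adjusted p = 0.832, exact permutation p = 0.3) was 0.28 without vehicle 3 and 0.39 without lycorine 1. The annotated span of Fgfr2 covers Oat on the same strand, and that row was listed at 311, 950 and 1154 TPM with lycorine and at 774, 296 and 2982 TPM with vehicle. The sources used here do not say how reads were divided between these rows, so the level of Oat is uncertain.

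RefSeq promoter windows (GRCm38.p6, 250 bases before to 50 after the annotated start) matched 6 of the 10 genes, and Gulo, Rgn, Lgr5 and Tbx3 had no entry. They were searched on both strands for CTTTGAT and CTTTGAA, the letters that TCF and LEF factors, the DNA-binding partners of beta-catenin, are known to prefer. At least 1 match stood in 3 of the 6 windows, those of Slc1a2, Cyp2e1 and Cyp1a2, against 8.65% of 32851 promoter windows of the same length. The windows of the other 3, Glul, Oat and Axin2, held none, which says only that these letters are not in them. The windows of Glul, Slc1a2 and Cyp2e1 are shown because these genes separated the libraries without overlap, and that of Cyp1a2 because it holds a match while its libraries overlapped. Capitals mark the match, printed on the gene's strand, where ATCAAAG and TTCAAAG are the same letters read from the other strand. The Slc1a2 window lies inside the gene's span given above.
Glul, chr1:153899679-153899978, + strand: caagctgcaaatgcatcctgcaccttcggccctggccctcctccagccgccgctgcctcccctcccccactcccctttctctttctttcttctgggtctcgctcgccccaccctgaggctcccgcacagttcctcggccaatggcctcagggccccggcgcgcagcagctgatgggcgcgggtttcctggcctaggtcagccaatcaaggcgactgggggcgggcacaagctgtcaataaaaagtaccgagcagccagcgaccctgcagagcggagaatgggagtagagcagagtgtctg
Slc1a2, chr2:102706188-102706487, + strand: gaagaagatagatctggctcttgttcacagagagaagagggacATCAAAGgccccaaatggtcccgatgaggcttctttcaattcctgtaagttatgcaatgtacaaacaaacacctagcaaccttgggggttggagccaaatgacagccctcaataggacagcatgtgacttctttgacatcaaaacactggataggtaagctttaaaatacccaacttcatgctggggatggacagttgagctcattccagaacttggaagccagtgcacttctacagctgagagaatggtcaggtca
Cyp2e1, chr7:140763569-140763868, + strand: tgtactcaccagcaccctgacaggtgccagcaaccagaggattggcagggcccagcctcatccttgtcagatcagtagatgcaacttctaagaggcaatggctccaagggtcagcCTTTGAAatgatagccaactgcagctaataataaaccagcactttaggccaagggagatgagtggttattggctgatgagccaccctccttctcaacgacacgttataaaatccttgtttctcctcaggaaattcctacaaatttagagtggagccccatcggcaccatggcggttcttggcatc
Cyp1a2, chr9:57683606-57683905, - strand: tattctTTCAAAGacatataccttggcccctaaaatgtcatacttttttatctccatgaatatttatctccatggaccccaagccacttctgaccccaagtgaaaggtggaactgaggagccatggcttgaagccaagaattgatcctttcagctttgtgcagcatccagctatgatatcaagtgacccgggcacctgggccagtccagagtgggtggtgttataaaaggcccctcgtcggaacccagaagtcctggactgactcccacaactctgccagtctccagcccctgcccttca
The match in Cyp2e1 began 135 bases before the RefSeq start, that in Slc1a2 207 bases and that in Cyp1a2 244 bases before it. The windows of Glul, Slc1a2, Cyp2e1 and Cyp1a2 had 64.3%, 45.7%, 49.7% and 49.7% G and C. These matches are a description of the letters and not a measurement of binding.

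Among the cytochromes, Cyp2e1 (ENSMUSG00000025479) oxidises ethanol and paracetamol and was by far the most abundant of the 10 transcripts. It lies on chromosome 7 from 140763739 to 140774987 (+ strand). It was at 2924, 2963 and 2244 TPM with lycorine and at 1696, 2125 and 1209 TPM with vehicle. The groups did not overlap, but the lowest lycorine library, lycorine 3, and the highest vehicle library, vehicle 2, were close. The log2 difference was 0.72 (SE 0.30, limma unadjusted p = 0.0453, adjusted p = 0.832, exact permutation p = 0.1), and 0.50 without vehicle 3.

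Cyp1a2 (ENSMUSG00000032310), which oxidises caffeine and arylamines and responds to the aryl hydrocarbon receptor, lies on chromosome 9 from 57676937 to 57683703 (- strand). It was at 227, 181 and 206 TPM with lycorine and at 119, 266 and 52.4 TPM with vehicle. Vehicle 2 lay above every lycorine library and the 2 other vehicle libraries lay below them, so the spread with vehicle (SD 109.1 TPM, n = 3) was wider than with lycorine (SD 22.7 TPM, n = 3). The log2 fold change of 0.78 (SE 0.55, limma adjusted p = 0.832, exact permutation p = 0.4) was 0.20 without vehicle 3 and 1.36 without vehicle 2. GCGTG, the core letters of the receptor's known element, did not occur in its window and stood in 32.4% of promoter windows. Of 6 other genes known to respond to that receptor, only Nqo1 passed the filter, with a log2 fold change of 0.38, which was -0.08 without vehicle 3 and 0.86 without vehicle 1. Cyp1a1, the neighbouring gene of the same family, was at 0.40, 0.30 and 0.25 TPM with lycorine and at 0.10, 0.29 and 0.08 TPM with vehicle.

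Of the genes of vitamin C synthesis, Gulo showed the widest gap between the groups. Gulo (ENSMUSG00000034450), gulonolactone oxidase, makes ascorbate in its last step in mice and lies on chromosome 14 from 65986786 to 66009207 (- strand). It was at 225, 165 and 162 TPM with lycorine and at 97.6, 106 and 55.6 TPM with vehicle. The groups did not overlap, and the lowest lycorine library was well above the highest vehicle library. Its mean was 184.0 ± 35.9 TPM with lycorine and 86.3 ± 26.9 TPM with vehicle (SD, n = 3 each). On the log2 scale the difference was 1.12 (SE 0.34, limma unadjusted p = 0.0126, adjusted p = 0.832, exact permutation p = 0.1), and 0.83 without vehicle 3.

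Rgn (ENSMUSG00000023070), regucalcin, is the gluconolactonase upstream of Gulo and lies on chromosome X from 20549787 to 20562089 (+ strand). It was at 284, 283 and 228 TPM with lycorine and at 166, 234.5 and 104.5 TPM with vehicle. Only vehicle 2 and lycorine 3 crossed, by a narrow margin. The log2 difference was 0.72 (SE 0.35, limma adjusted p = 0.832, exact permutation p = 0.2), and 0.42 without vehicle 3.

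The remaining members, Axin2, Tbx3 and Lgr5, were weakly expressed and did not separate the groups. Axin2 (ENSMUSG00000000142), the scaffold through which beta-catenin signalling limits itself, lies on chromosome 11 from 108920349 to 108950783 (+ strand). It was at 2.81, 1.02 and 3.43 TPM with lycorine and at 2.63, 1.69 and 0.57 TPM with vehicle, so lycorine 2 lay below 2 vehicle libraries. The log2 fold change of 0.38 (SE 0.48, limma adjusted p = 0.859, exact permutation p = 0.5) was 0.05 without vehicle 3, 0.16 without lycorine 3 and 0.73 without lycorine 2.

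Tbx3 (ENSMUSG00000018604), a T-box repressor found in pericentral hepatocytes, lies on chromosome 5 from 119670669 to 119684724 (+ strand). It was at 4.04, 2.02 and 3.50 TPM with lycorine and at 3.09, 1.61 and 1.80 TPM with vehicle, with lycorine 2 below vehicle 1. The log2 difference was 0.40 (SE 0.36, limma adjusted p = 0.832, exact permutation p = 0.2). Its antisense neighbour Tbx3os1 was at 1.11, 1.26 and 11.3 TPM with lycorine and at 0.43, 1.70 and 13.4 TPM with vehicle, and whether the counting used strand is not stated in the labels. Over the libraries left out, the log2 difference of Tbx3 was 0.25 without lycorine 1 to 0.62 without lycorine 2.

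Lgr5 (ENSMUSG00000020140), a receptor for R-spondins, lies on chromosome 10 from 115450311 to 115587780 (- strand). It was at 0.41, 0.14 and 0.57 TPM with lycorine and at 0.71, 0.18 and 3.81 TPM with vehicle. Only vehicle 3 exceeded 1 TPM, and the other vehicle libraries lay within or near the lycorine range. Lgr5 did not pass the filter, and with no filter its log2 fold change was -0.65 (limma adjusted p = 0.860) and, without vehicle 3, -0.06. The exact permutation p was 0.4.

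**Figure D1:**
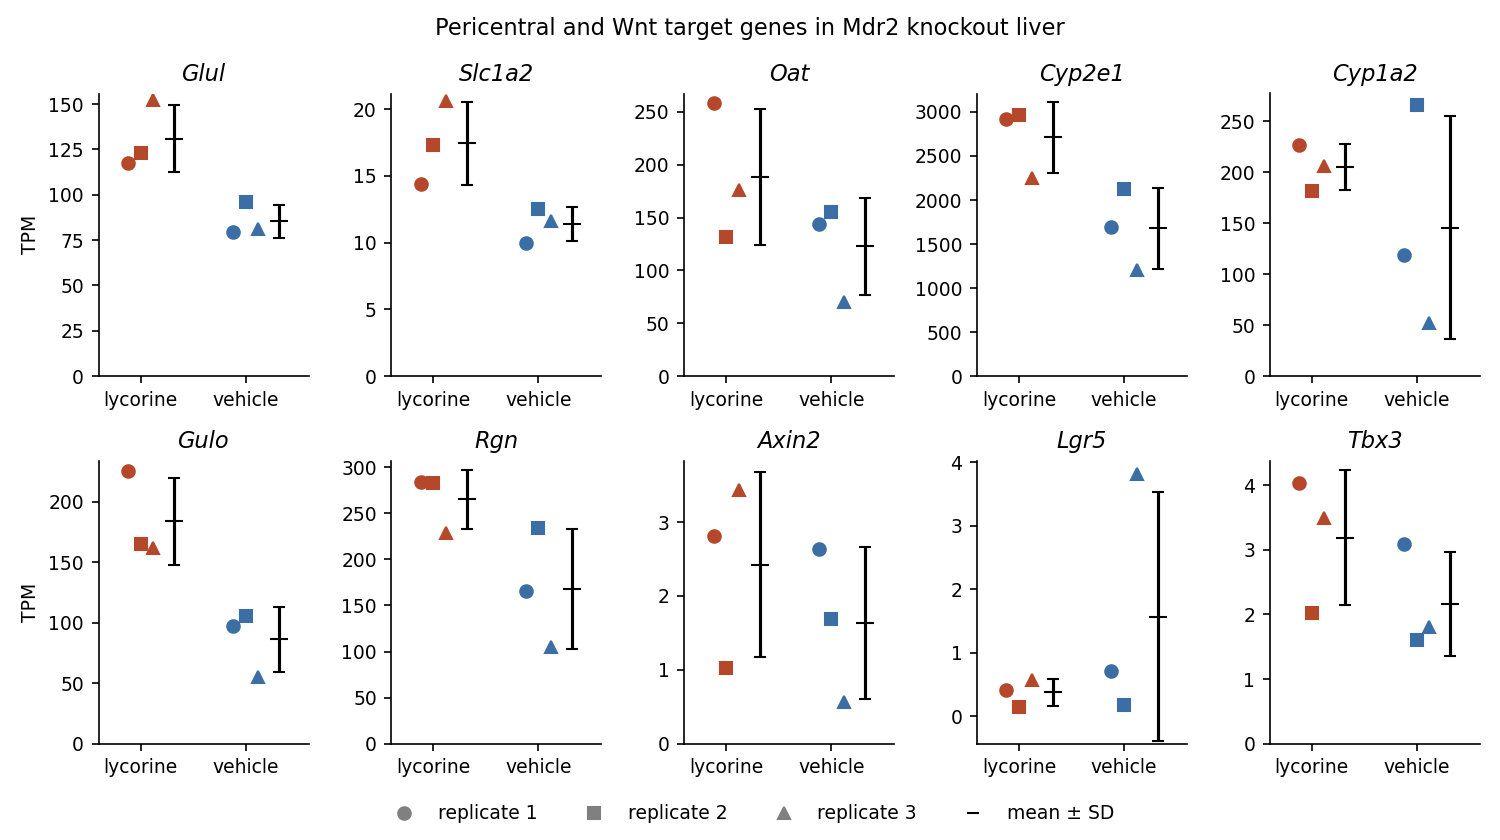
TPM of the 10 genes in each of the 3 lycorine and 3 vehicle libraries, with markers for the replicate number and bars for the mean and SD of each group; each panel has its own linear axis. Lycorine libraries lie above all vehicle libraries for Glul, Slc1a2, Cyp2e1 and Gulo, and vehicle 3 is the highest library for Lgr5.

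By mean TPM over the 6 libraries the order was Cyp2e1 (2194), Rgn (216.7), Cyp1a2 (175.1), Oat (155.6), Gulo (135.2), Glul (108.2), Slc1a2 (14.4), Tbx3 (2.68), Axin2 (2.03) and Lgr5 (0.97). Cyp2e1 was above Rgn, Glul above Slc1a2 and Slc1a2 above Tbx3 with no overlap over the libraries. The 5 genes from Rgn to Glul overlapped with their neighbours in the order, and Cyp1a2 exceeded Oat in only 3 of 6 libraries. Tbx3, Axin2 and Lgr5 overlapped too, each neighbour pair keeping its order in 5 of 6 libraries.

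The scaling between libraries set the size of these differences but not the sign for the 9 tested genes. Under 4 other scalings the log2 fold changes of the 9 genes tested in TPM stayed above 0. So did those of 52.8% of rows with protein-coding nuclear genes alone, 47.8% with median-of-ratios scaling, 58.3% with quantile normalization and 39.2% with the hepatocyte shift described next. The log2 fold changes of Glul were 0.28 to 0.34, of Cyp2e1 0.40 to 0.66, of Gulo 0.80 to 0.86 and of Axin2 0.06 to 0.34. Lgr5 passed the filter with protein-coding nuclear genes alone, where its log2 fold change was -0.90. The median over the tested genes was 0.36 with protein-coding nuclear genes alone, 0.33 with median-of-ratios scaling, 0.39 with quantile normalization and 0.32 after shifting each library by its mean over 10 hepatocyte markers. The median of all tested rows was then 0.03, -0.02, 0.07 and -0.10. Groups without overlap were left for Gulo alone with the first 3 of these scalings, against 4.82%, 3.2% and 4.02% of tested rows, and for Rgn, Cyp2e1 and Gulo with the last, against 1.57%. With lycorine below vehicle the count was 0 members with median-of-ratios scaling, quantile normalization and the hepatocyte shift, against 3.65%, 2.82% and 1.21% of tested rows. The hepatocyte shift was chosen after the data had been seen.

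**Figure D2:**
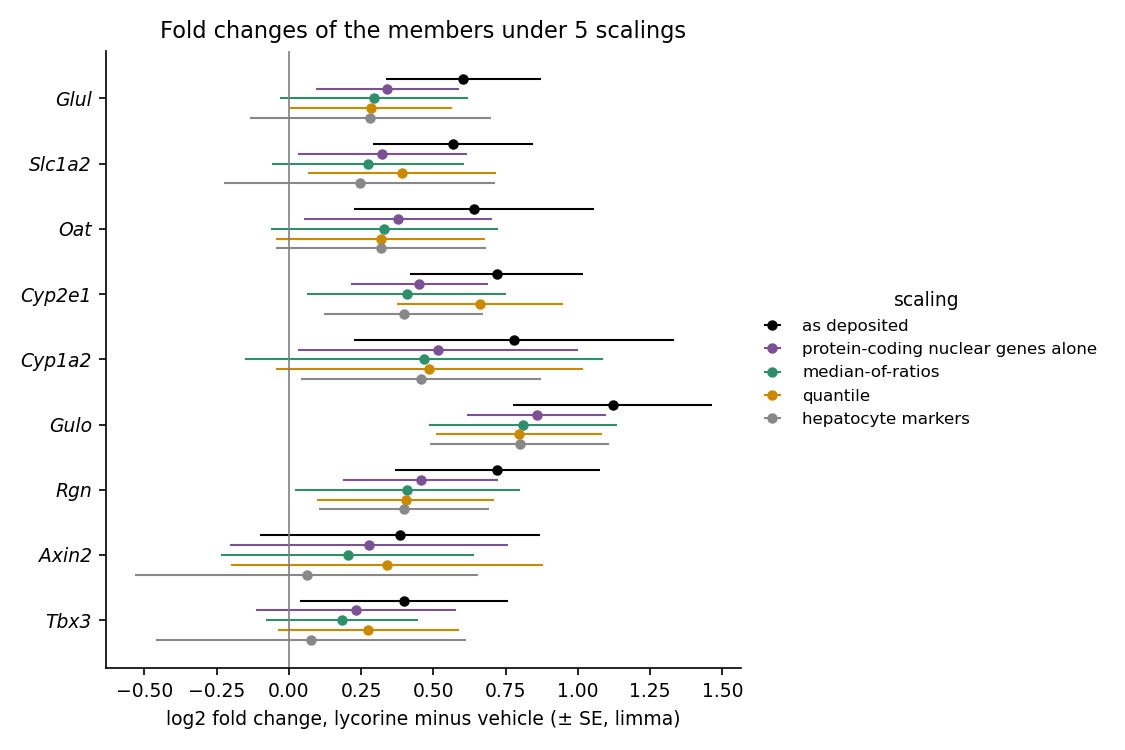
Log2 fold change, lycorine minus vehicle, with its limma standard error for the 9 tested genes under 5 scalings of the libraries. All points lie above 0, and Gulo, at 0.80 to 1.12, lies farthest to the right under every scaling shown.

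A ratio between genes of one library does not depend on a factor common to that library. Glul per Gls2, the glutaminase of periportal cells that runs the opposite reaction, was 1.50, 1.82 and 1.91 with lycorine and 0.756, 1.31 and 1.37 with vehicle, with no overlap. Gls2 itself was at 78.2, 67.6 and 79.7 TPM with lycorine and at 104.9, 73.3 and 59.3 TPM with vehicle. Cyp2e1 per Cyp2f2, a periportal cytochrome, was 15.9, 15.4 and 17.0 with lycorine and 13.0, 11.9 and 16.6 with vehicle, where vehicle 3 lay inside the lycorine range. Relative to 1000 TPM of Alb the libraries overlapped for each gene so compared. Glul was then at 5.94, 6.33 and 12.9 with lycorine and at 4.77, 5.26 and 16.1 with vehicle, vehicle 3 being the highest, and Gulo at 11.4, 8.48 and 13.7 with lycorine and at 5.87, 5.79 and 11.0 with vehicle.

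The 20 periportal genes, all tested, had a median near that of the whole table. Of these 14 were higher and 6 lower, where 69.9% of all tested rows were higher, and 9 exceeded the all-row median. The groups were apart in 0, against 9.6% of tested rows upward and 1.01% downward. They were apart downward in 1 with protein-coding nuclear genes alone, against 225 of 11774 rows. The count was also 1 with the hepatocyte shift, against 1.21%. With limma 0 were called over all rows and 0 had an unadjusted p under 0.05, and their median log2 fold change was 0.17. Their median was -0.14 with median-of-ratios scaling, with 9 higher and 11 lower (47.8% of all rows higher). Over the libraries left out it was -0.08 without lycorine 1 to 0.39 without lycorine 3, and 0.02 without vehicle 3. The 3 with the smallest p were Aldh1b1, an aldehyde dehydrogenase, G6pc, which releases glucose, and Cyp2f2. Their log2 fold changes were 0.68, 0.60 and 0.48, and 0.33, 0.23 and 0.12 without vehicle 3. The mean log2(TPM + 1) of the 9 tested pericentral genes minus that of the periportal list was -0.30, -0.09 and 0.21 with lycorine and -0.62, -0.35 and -0.48 with vehicle. The lowest lycorine and highest vehicle values nearly touched. The mean of these differences was -0.06 ± 0.26 with lycorine and -0.48 ± 0.14 with vehicle (SD, n = 3 each), which are 0.42 apart, and 0.29 to 0.54 apart when each library was left out. No test was made of this score, since the genes were chosen with results of these data known.

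**Figure D3:**
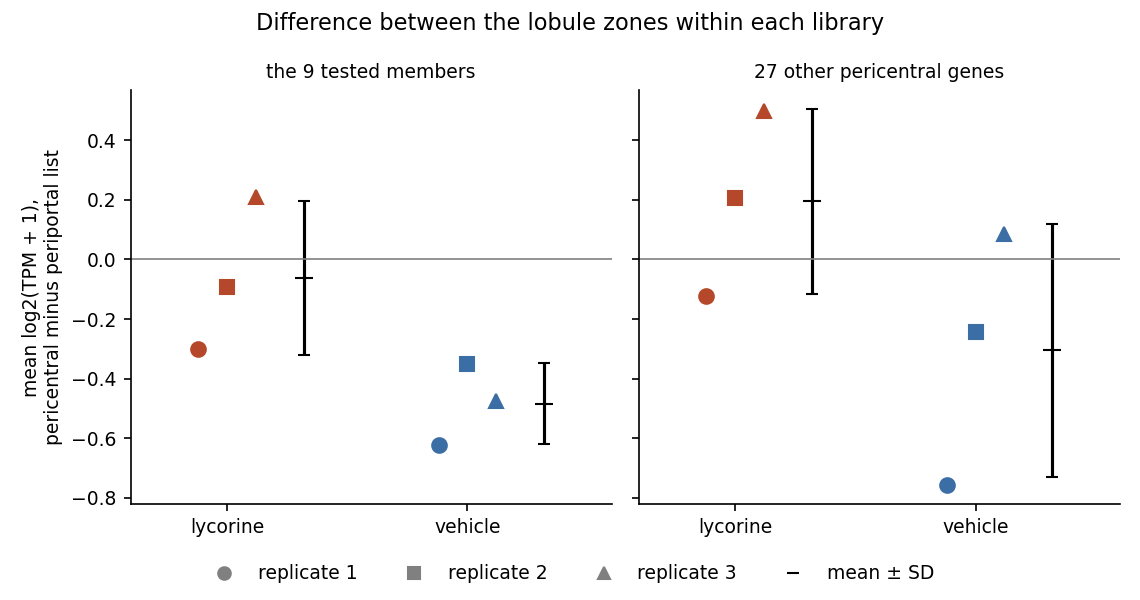
Mean log2(TPM + 1) of pericentral genes minus that of 20 periportal genes in each library, for the 9 tested members on the left and 27 other pericentral genes on the right, with the mean and SD of each group. On the left the lowest lycorine library is at -0.30 and the highest vehicle library at -0.35, and on the right the groups overlap.

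Most other pericentral genes lay in the same direction. Of 28 listed, 27 were tested, 25 were higher and 2 lower, and 23 exceeded the all-row median. Their median log2 fold change was 0.66, limma called 0 over all rows, and in 12 the groups were apart upward, against 9.6% of all tested rows. That count was 3 with median-of-ratios scaling (3.2% of rows), 5 with quantile normalization (4.02%), 7 of 28 tested with protein-coding nuclear genes alone (4.82%) and 5 with the hepatocyte shift (1.57%). In 1 gene the groups were apart downward with median-of-ratios scaling (3.65% of rows) and in 1 with quantile normalization (2.82%). Those higher numbered 20 of 27, 21 of 27, 23 of 28 and 20 of 27 under these 4 scalings. The smallest p belonged to Cyp2c29, a cytochrome of a family with near-identical copies, which was at 61.9, 30.03 and 44.7 TPM with lycorine and at 1.24, 6.24 and 3.65 TPM with vehicle. Its log2 fold change was 3.40 (limma adjusted p = 0.740). Slc13a3, a dicarboxylate importer, was at 10.9, 8.20 and 11.9 TPM with lycorine and at 4.94, 4.87 and 5.02 TPM with vehicle. The log2 fold change of Slc13a3 was 0.92 (limma adjusted p = 0.832). The list's mean minus the periportal mean was -0.12, 0.21 and 0.50 with lycorine and -0.76, -0.24 and 0.08 with vehicle, with overlap. Sult5a1, a sulfotransferase, went the other way, at 2.63, 2.87 and 6.44 TPM with lycorine and at 7.99, 4.68 and 19.5 TPM with vehicle.

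Among Wnt pathway genes outside the set, 11 further targets were listed and 8 tested. All 8 were higher, as were 69.9% of tested rows, 6 exceeded the all-row median, and their median log2 fold change was 0.48. The groups were apart in 0, against 9.6% of tested rows upward and 1.01% downward. They were apart upward in 1 with median-of-ratios scaling (3.2% of rows) and in 1 with quantile normalization (4.02%). With median-of-ratios scaling 6 were higher (47.8% of rows) and the median was 0.25. Without vehicle 3 the median was 0.12, 7 were higher and 3 exceeded the all-row median, and without vehicle 1 the median was 0.83. Notum, a secreted enzyme that inactivates Wnt proteins, was at 19.3, 17.4 and 18.6 TPM with lycorine and at 18.1, 12.9 and 8.28 TPM with vehicle (log2 fold change 0.52). Tnfrsf19, a receptor of the TNF family, and Rnf43, a ligase that removes Wnt receptors, had log2 fold changes of 0.67 and 0.45, and limma called 0 of the 8 over all rows.

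Of 21 Wnt ligands and secreted regulators 7 were tested, 5 higher and 2 lower, with a median log2 fold change of 0.26 and 0 called, and Rspo2 and Wif1 were listed at 0 in every library. Without vehicle 2 the median was -0.13, with 3 higher and 4 lower. Rspo3, an R-spondin of the central vein, was at 1.30, 1.20 and 3.40 TPM with lycorine and at 0.93, 0.47 and 1.75 TPM with vehicle. Wnt2, a Wnt protein of sinusoidal and central vein endothelium, was at 24.5, 67.7 and 118 TPM with lycorine and at 52.2, 37.8 and 277 TPM with vehicle, with vehicle 3 again the highest. Its log2 difference was -0.48, and 0.39 without vehicle 3. Wnt9b, the other main Wnt of the central vein, stayed at or below 0.08 TPM with lycorine and at 0.11 to 0.30 TPM with vehicle. Wnt5b was at 7.29, 6.17 and 5.70 TPM with lycorine and at 4.47, 4.61 and 4.05 TPM with vehicle, and Dkk3 had a log2 fold change of 0.37.

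Of 25 receptors and signal transducers 21 were tested, 18 higher and 3 lower, but only 9 exceeded the all-row median. Their median log2 fold change was 0.21 and limma called 0. With median-of-ratios scaling 11 were higher and 10 lower (47.8% of all rows higher), and with quantile normalization 16 and 5 (58.3%). With protein-coding nuclear genes alone 12 were higher and 11 lower (52.8%), and with the hepatocyte shift 6 and 15 (39.2%). Leaving out vehicle 2 gave a median of 0.03, vehicle 3 of 0.04, lycorine 1 of 0.06 and vehicle 1 of 0.44. Ctnnb1, which encodes beta-catenin, was at 60.9, 31.2 and 25.5 TPM with lycorine and at 38.8, 17.1 and 21.6 TPM with vehicle, with overlap. Lgr4 is the R-spondin receptor found along the whole lobule. It was at 3.88, 4.61 and 4.23 TPM with lycorine and at 3.36, 3.34 and 2.89 TPM with vehicle. Btrc, a part of the ligase that degrades beta-catenin, had a log2 fold change of 0.64, and 0.24 without vehicle 3.

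**Figure D4:**
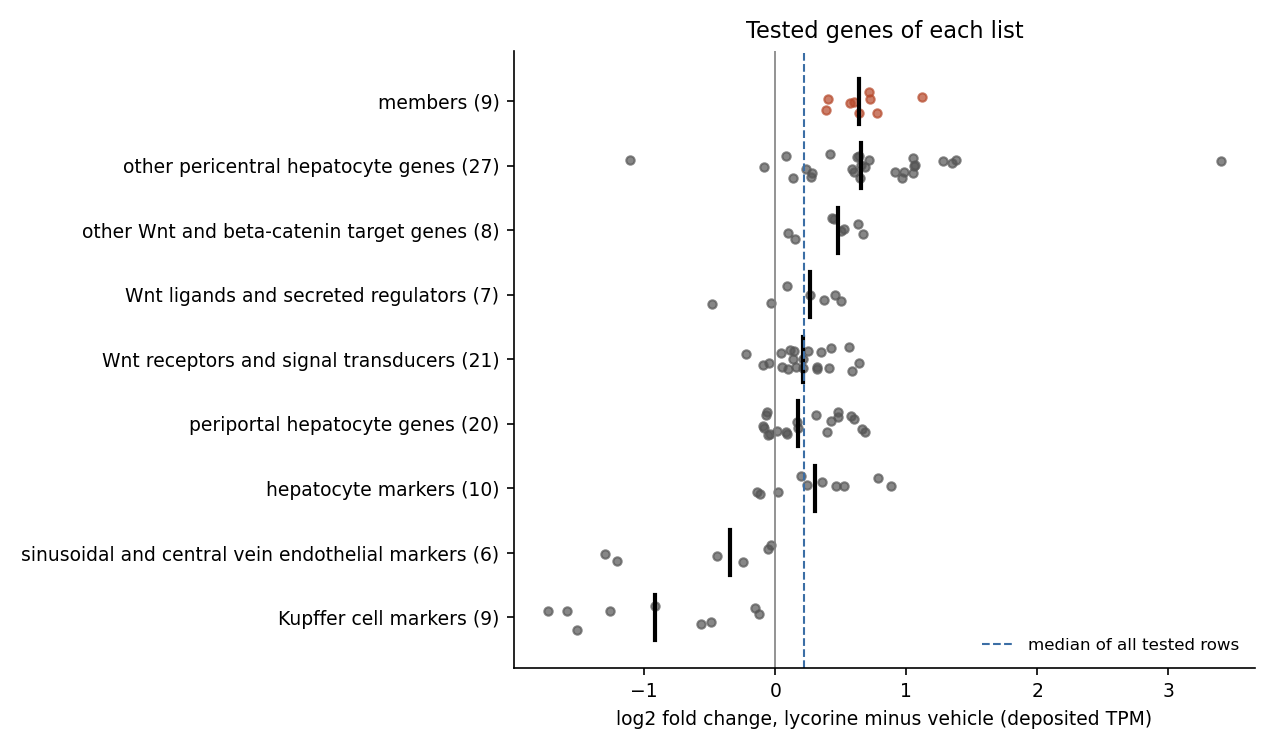
Log2 fold change, lycorine minus vehicle, of the tested genes of 9 lists, with the list's median as a black bar, the number tested in brackets and the median of all tested rows as a dashed line at 0.22. The members and the other pericentral genes have medians of 0.64 and 0.66, and the periportal genes 0.17.

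Neighbouring metabolism was also described. Of 16 other genes of glutamine, ornithine and proline metabolism 14 were tested, 13 higher and 1 lower, with a median log2 fold change of 0.41 and 0 called by limma. The groups were apart upward in 4, against 9.6% of tested rows. That count was 0 with median-of-ratios scaling (3.2% of rows), 1 with quantile normalization (4.02%) and 1 with the hepatocyte shift (1.57%). It was 2 of 15 tested with protein-coding nuclear genes alone (4.82%). Pycr3, which makes proline, was at 11.04, 12.1 and 12.1 TPM with lycorine and at 6.93, 6.85 and 6.26 TPM with vehicle. Got1, an aminotransferase, was at 74.85, 27.6 and 21.15 TPM with lycorine and at 14.0, 17.0 and 19.0 TPM with vehicle, with lycorine 1 the highest. Got1 and Glud1, glutamate dehydrogenase, had log2 fold changes of 1.05 and 0.83, and of 1.15 and 0.45 without vehicle 3. All 6 other genes of ascorbate synthesis and transport were tested, 5 higher and 1 lower, with a median of 0.33 and 0 called. That median was 0.04 with median-of-ratios scaling, 0.12 without vehicle 3 and 0.11 without lycorine 1. Akr1a1, the reductase that precedes Rgn in the pathway, was at 427, 431 and 426 TPM with lycorine and at 347, 320.2 and 339 TPM with vehicle, with no overlap. Under the 4 other scalings the groups overlapped for Akr1a1. Slc23a1 and Slc23a2, the ascorbate importers, had log2 fold changes of 0.30 and -0.71, and Slc23a2 reached 8.70 TPM in vehicle 3, while the remaining libraries had 1.13 TPM or less. Without vehicle 3 the log2 difference of Slc23a2 was 0.09.

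Among the genes whose levels followed Glul most closely over the 6 libraries, out of 4037 protein-coding genes outside the set with a mean of at least 10 TPM, were Cyp2c54, Dbp, Car5a and Igfals. Their Pearson correlations with Glul on the log2 scale were 0.956 to 0.965, where the median candidate had 0.319. Those nearest to Cyp2e1 were Fdx1, Gchfr, Chac2, Ugt2b34 and Bnip3, at 0.985 to 0.988, where the median candidate had 0.559. The 6 libraries include both groups, so these values describe the difference between groups as well as the spread within them.

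Among markers of the cell types that could share these samples, limma called 0. All 10 hepatocyte markers were tested, 8 higher and 2 lower, with a median log2 fold change of 0.30. Without vehicle 3 they were 5 higher and 5 lower with a median of -0.02, and with median-of-ratios scaling 5 and 5 with a median of -0.01. Their summed TPM was 78340 to 106200 with lycorine and 47860 to 84920 with vehicle. The smallest p among them belonged to Ahsg, Ttr and Apoa2, secreted plasma proteins, with log2 fold changes of 0.88, 0.78 and 0.36, of which those of Ahsg and Ttr were 0.46 and 0.21 without vehicle 3.

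Of the sinusoidal and central vein endothelial markers 6 of 11 were tested and all 6 were lower, with a median of -0.34 and summed TPM of 46.6 to 76.8 with lycorine and 38.5 to 124.1 with vehicle. Clec4g, a sinusoidal lectin, was at 5.17, 4.80 and 2.87 TPM with lycorine and at 15.4, 9.46 and 8.90 TPM with vehicle, with no overlap. Without vehicle 1 the endothelial markers were 3 higher and 3 lower with a median of -0.14, and without lycorine 2 the median was -0.18. Without vehicle 3 it was -0.23. Kdr, a VEGF receptor, was at 0.98, 0.41 and 0.24 TPM with lycorine and at 14.1, 0.76 and 0.94 TPM with vehicle. Its log2 fold change was -1.30, and vehicle 1 was the only library above 1 TPM. Stab2, a scavenger receptor, had a log2 fold change of -0.44, and -0.09 without vehicle 3. All 9 tested of 10 markers of Kupffer cells, the resident macrophages, were lower, with a median of -0.92. The groups were apart downward in 4 of the 9, against 1.01% of tested rows. That count was 4 with median-of-ratios scaling (3.65% of rows), 5 with quantile normalization (2.82%) and 1 with the hepatocyte shift (1.21%). With protein-coding nuclear genes alone it was 4, against 225 of 11774 rows. Without lycorine 3, and likewise without vehicle 1, 7 of the 9 were lower. Their summed TPM was 152.2 to 412.3 with lycorine and 220.3 to 551.2 with vehicle. Vsig4, Cd5l and Clec4f had log2 fold changes of -1.26, -1.74 and -1.51.

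Of 8 bile duct markers 7 were tested, 5 higher and 2 lower, with a median of 0.40 and summed TPM of 55.9 to 228.5 with lycorine and 47.6 to 226.7 with vehicle. Without lycorine 1 they were 2 higher and 5 lower with a median of -0.02, and the median was 0.03 without vehicle 2 and 1.004 without vehicle 1. Spp1, Cd24a and Epcam had log2 fold changes of 0.91, 0.58 and 0.40, and of 0.31, 0.54 and 0.14 without vehicle 3. Of 9 stellate cell and fibroblast markers 7 were tested, 4 higher and 3 lower, with a median of 0.05 and sums of 48.8 to 230.4 TPM with lycorine and 93.6 to 186.5 TPM with vehicle. Without lycorine 1 the stellate median was -0.33, and without vehicle 1 it was 0.50. Reln, Dcn and Col3a1 had log2 fold changes of -0.61, -0.95 and 0.61. Of 10 leukocyte markers 8 were tested, 1 higher and 7 lower, with a median of -0.18 and sums of 58.5 to 315.4 TPM with lycorine and 84.7 to 414.7 TPM with vehicle. Without vehicle 1 the leukocyte median was 0.08, with 5 higher and 3 lower, and without lycorine 1 it was -0.53. S100a9, S100a8 and Nkg7 had log2 fold changes of -1.68, -1.47 and -0.78. None of these markers was at 0 in all libraries, and their part in the values of the pericentral genes was not tested.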

How the data were processed

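The authors deposited 1 table of values per gene and library, which is named for FPKM, but each of the 6 deposited columns has the same sum, 1000000 within rounding, so the values are TPM. The planned test was kept. The sources used here name no aligner, quantifier or annotation. Builds GRCm38 and mm10 stand in the submitters' processing notes. Per the labels' protocols, libraries were made from 1.3 µg of total RNA with a NEBNext Ultra kit. Columns whose names lack the short form of the drug were taken as vehicle, since only those labels remained. Depth is unknown.

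Names and coordinates came from GENCODE M21 (GRCm38). The 13854 rows averaging 1 TPM or more were tested on log2(TPM + 1). The two-sided test was limma's (3.58.1, R 4.3.3), its prior variance following a trend. Adjustment was by Benjamini-Hochberg, and the threshold was 0.05. Single genes had an exact permutation test over 20 assignments. The procedure was run on simulated data with independent noise in each row and library. Those data held no factor common to a library, so they do not show how the test handles one. The members, the 14 other lists and the tests were chosen with earlier results of these data known. Named genes were all members, the 3 of smallest p in each list, the 5 most like Glul and Cyp2e1, and genes a result turned on, and 1 gene that this rule names is not reported here. Sult5a1, Gls2, Tbx3os1, Fgfr2 and Cyp1a1 were named after their values were seen. Alternatives covered pseudocount, filter, scaling, variance model, weights, block and left-out libraries. Differences of single genes without vehicle 3 were added after the data were seen, with no filter and no test.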

Additional observations from a re-analysis of the deposited data

How the results depend on the processing

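In each of 18 alternatives limma called 0 of the members it tested, which were 9 in most, 7 with a minimum mean of 5, and all 10 with no filter and with protein-coding nuclear genes alone. Across all rows it called 0, except 1 with a pseudocount of 0.1, and 0 to 2 over the libraries left out. At an unadjusted p under 0.05 there were 476 rows, 386 higher and 90 lower. That count was 1238 without vehicle 1, 848 with array quality weights, 193 without lycorine 2 and 864 with no filter. Among rows at that p, those higher and lower numbered 144 and 104 with protein-coding nuclear genes alone, 137 and 158 after quantile normalization, 127 and 193 after scaling by median of ratios, and 53 and 87 with the hepatocyte shift.

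The members' median log2 fold change, 0.64, was 0.33 with median-of-ratios scaling and 0.32 with the hepatocyte shift, and 0.42 without vehicle 3 to 0.85 without vehicle 2 over the libraries left out. Axin2 turned to -0.16 with array quality weights and to -0.17 without both vehicle 3 and lycorine 3, and the cause was not tested. No other tested member changed sign. The difference between zones was 0.29 to 0.54 over the libraries left out. Deviations of same-numbered libraries correlated at 0.311, 0.0494 and 0.291. Libraries numbered 1 and those numbered 3 were each other's best match, but vehicle 2 correlated best with lycorine 1, at 0.214. These values do not settle whether the numbers pair the samples, and the main fit did not pair them. With the replicate block 0 rows and 0 members were called. At an unadjusted limma p under 0.05 there were then 1033 of 13854 rows and 4 of 9 members, against 476 and 2 in the main fit. The member count at that p was 1 with median-of-ratios scaling, quantile normalization, protein-coding nuclear genes alone and the hepatocyte shift. It was 4 without vehicle 2.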
